A study of Sus scrofa with 6 samples.

Results

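The 10 genes of intestinal stem cells and the crypt were followed through the piglet ileum from birth to day 21. They were *LGR5*, *ASCL2*, *OLFM4*, *SMOC2*, *SOX9*, *AXIN2*, *EPHB2*, *SPINK1*, *HES1* and *SOX4*, chosen by name, and all 10 were among the 20648 genes of the files. Mucosa of the ileum, the last part of the small intestine, was scraped from male Large White piglets at 0, 1, 3, 7, 14 and 21 days of age, fed on maternal milk without any treatment. It was released with EDTA, split into single cells with TrypLE and run as 1 droplet library per age. Several piglets were used per age with a single chip channel per group, and how their cells were combined is not stated in the sources used here. The sample labels give ileum, while the series' design text names the cecum.

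Each captured transcript was counted once through its unique molecular identifier (UMI). Over all barcodes the libraries held 77391932 to 100348769 UMIs. Barcodes with at least 1000 UMIs and 500 genes were kept, 76099 in all and 10836 to 15956 per library, with a median of 3693 to 4560 UMIs per library. Epithelial barcodes had 5 or more UMIs of *EPCAM*, *KRT8* and *VIL1* together and at most 1 of *PTPRC*. B barcodes had 2 or more of *MS4A1*, *PAX5* and *POU2AF1*, and were called cycling with 2 or more of *TOP2A*, a DNA topoisomerase of dividing cells. Stromal barcodes had 5 or more of the collagen gene *COL3A1*. The 178 barcodes that met several lineage rules were set apart. Another 18815 met none, and these were 50.3% and 57.2% of the kept barcodes on days 0 and 1. B barcodes with 5 or more UMIs of *EPCAM*, *KRT8* and *VIL1* but over 1 of *PTPRC* did not meet the epithelial rule and stayed among the B barcodes. Outside the cycle they numbered 74 and 39 on days 0 and 1.

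The epithelium was unevenly sampled over age. Epithelial barcodes numbered 2673, 971, 87, 179, 27 and 1 on days 0, 1, 3, 7, 14 and 21. Stromal barcodes numbered 264, 347 and 180 on days 0, 1 and 3, with none later. B barcodes outside the cycle numbered 2285 and 10238 on days 0 and 21, and cycling ones 81 and 5931 on days 0 and 14. Independent epithelial markers (8 genes) summed to 33.3 to 75.1 UMIs per 10000 in epithelial barcodes and 0.021 to 5.81 in B barcodes outside the cycle, where day 0 was highest. B markers (7 genes) summed to at most 1.15 in epithelial barcodes up to day 14. Stromal markers summed to 109 to 122 in stromal barcodes and to at most 0.237 in the other lineages. Because there was 1 library per age, no difference between ages was tested, and the intervals given are exact 95% Poisson or Clopper-Pearson intervals that cover counting error only.

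Crypts are the pockets between villi where stem cells divide and renew the epithelium. WNT signals from the surrounding tissue keep stem cells dividing, and Notch signals between neighbouring cells set the balance of absorptive and secretory daughters. Cells that leave the crypt lose this program as they become enterocytes, goblet cells or enteroendocrine cells. *LGR5* (chromosome 5, 35463257 to 35595234, build Sscrofa11.1) encodes a receptor for R-spondins, which strengthen WNT signals. *AXIN2* (chromosome 12, 12311293 to 12343207) is a WNT target that feeds back to restrain the pathway. *ASCL2* (chromosome 2, 1558459 to 1560112) encodes a stem cell transcription factor driven by WNT, and *EPHB2* (chromosome 6, 80649098 to 80849979) a receptor kinase that keeps cells in their place along the crypt. *SMOC2* (chromosome 1, 1193163 to 1332739) encodes a matrix protein and *OLFM4* (chromosome 11, 26252948 to 26375531) a secreted glycoprotein, both used as stem cell markers. *SPINK1* (chromosome 2, 149072652 to 149079529) encodes a trypsin inhibitor. *SOX9* (chromosome 12, 8642154 to 8647315) and *SOX4* (chromosome 7, 16886834 to 16895488) encode transcription factors of progenitors, and *HES1* (chromosome 13, 131135970 to 131137865) the repressor that answers Notch.

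Of the 10 genes, 8 were higher in epithelial than in B barcodes, most of them by over 10-fold in the fit, and *HES1* and *SOX4* were not shown to differ. Counts were summed per library and lineage and fitted with edgeR, with the library as a block, over the 5 libraries that had at least 20 barcodes of both lineages. The lineages differ widely, and 48.2% of all 14185 genes tested passed an adjusted p of 0.05, with 24.8% higher and 23.4% lower in the epithelium, so 8 of 10 is to be read against that background. The p-values describe how steady a lineage difference was over libraries of different ages. In the day 0 library only *ASCL2* exceeded 10-fold, at 15.2, with *OLFM4* next at 9.97.

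*LGR5* was rare. Its level in epithelial barcodes was 0.037, 0.0292, 0.129 and 0.0083 UMIs per 10000 on days 0, 1, 3 and 7, from 144, 55, 10 and 1 UMIs, with 0 UMIs on days 14 and 21. The 27 barcodes of day 14 were too few to see it, since 0 UMIs allow a level of up to 0.17 (3 counts). In B barcodes outside the cycle the level was 0.00898, 0.00378, 0.00442, 0.00129 and 0.000787 on days 0, 1, 3, 7 and 14. The fitted log2 difference was 2.72 ± 0.59 (SE; edgeR adjusted p = 0.00786).

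*ASCL2* stood at 0.228, 0.104, 0.62 and 0.108 on days 0, 1, 3 and 7 in epithelial barcodes, with 0 UMIs on day 14. B barcodes outside the cycle held 0.0044 to 0.015 over the same libraries, so the groups did not overlap before day 14. The log2 difference was 4.09 ± 0.56 (edgeR adjusted p = 0.00163). *AXIN2* was the most even of the WNT genes in the epithelium, at 0.176, 0.221, 0.349 and 0.199 on days 0, 1, 3 and 7, and its intervals on days 0 and 7 overlapped. In B barcodes outside the cycle *AXIN2* lay between 0.00543 and 0.0404. Its log2 difference was 2.82 ± 0.50 (edgeR adjusted p = 0.00395). *EPHB2* levels in the epithelium were 0.116, 0.12, 0.258 and 0.083 on days 0, 1, 3 and 7, against 0.016 or less in B barcodes outside the cycle. It was 4.49 ± 0.66 higher on the log2 scale (edgeR adjusted p = 0.0021).

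*OLFM4* differed widely between the early libraries. Epithelial barcodes held 2.68 UMIs per 10000 at birth (interval 2.63 to 2.74), 9.29 a day later (9.15 to 9.42), 8.08 in the day 3 library (7.46 to 8.74) and 0.888 in the day 7 library (0.728 to 1.07). Only 1 UMI was found on day 14. A few barcodes carried much of it, since the highest held 455 UMIs on day 0 and 1352 on day 1, and 10 barcodes held 43.5% of all epithelial *OLFM4* UMIs on day 1. In B barcodes outside the cycle *OLFM4* stood at 0.269 and 0.305 on days 0 and 1, and it was at 0 UMIs on days 14 and 21. Barcodes with at most 100 UMIs, taken as free RNA, held *OLFM4* at 1.66 and 2.44 on those first days. If B barcodes carried it in the same ratio to enterocyte genes as free RNA, they would hold 0.443 and 0.291 on days 0 and 1. Of the 270 *OLFM4* UMIs in B barcodes outside the cycle on day 0, 136 lay in 74 barcodes with 5 or more UMIs of the epithelial rule. On day 1, 383 of 484 lay in 39 such barcodes. Those with under 2 such UMIs held *OLFM4* at 0.157 and 0.0603 on days 0 and 1. The source of this *OLFM4* was not tested. The log2 difference of epithelial from B barcodes was 5.35 ± 0.80 (edgeR adjusted p = 0.00222).

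*SPINK1* followed a related course, at 1.78, 5.86, 12.9 and 3.0 on days 0, 1, 3 and 7 in epithelial barcodes, where its highest library was day 3. B barcodes outside the cycle held 0.182 on day 0, 0.301 on day 1 and at most 0.0401 later, and the log2 difference was 5.38 ± 0.91 (edgeR adjusted p = 0.00339). *SMOC2* was near 0.159 and 0.152 on days 0 and 1, with overlapping intervals, then 1.37 and 0.116 on days 3 and 7. The day 3 value rests on 106 UMIs in 87 barcodes, 39.1% of which held one. *SMOC2* was 4.46 ± 0.85 higher than in B barcodes on the log2 scale (edgeR adjusted p = 0.0063). *SOX9* stood at 0.261, 0.158, 1.01 and 0.747 on days 0, 1, 3 and 7, so both later libraries were above both earlier ones. Its log2 difference was 3.80 ± 0.73 (edgeR adjusted p = 0.00655). The mix of epithelial barcodes also differed between libraries. Those rich in enterocyte genes, by the split given below, were 19.6%, 46.5%, 2.3% and 42.5% on days 0, 1, 3 and 7. The part of this mix in the levels of the members by age was not tested.

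*HES1* was low in every lineage. Epithelial barcodes held 0.0165, 0.0144, 0.0258 and 0.0083 on days 0, 1, 3 and 7, from 64, 27, 2 and 1 UMIs. B barcodes outside the cycle held 0.0199, 0.0259, 0.0209 and 0.0101 in the same libraries, and free RNA held 0.0616 and 0.0319 on days 0 and 1. The log2 difference was -0.78 ± 0.44 (edgeR adjusted p = 0.177), which leaves *HES1* without a lineage call.

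**Figure D1:**
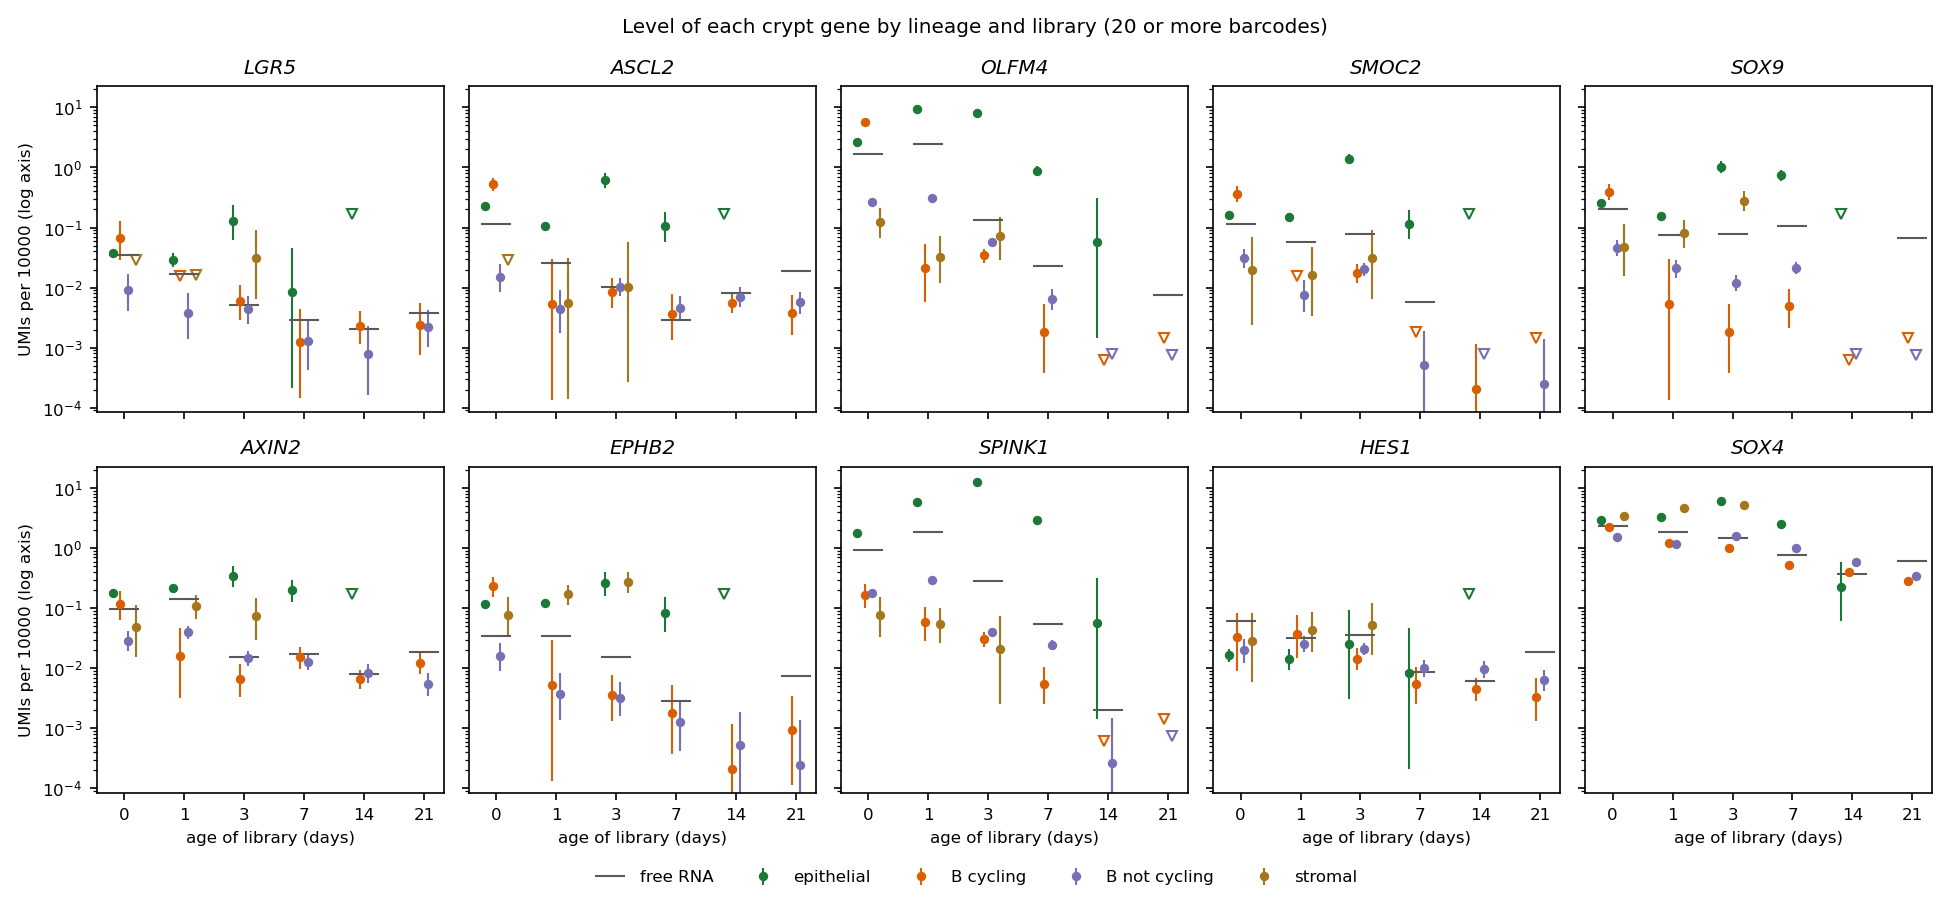
Level of the 10 genes (UMIs per 10000 UMIs of the lineage, log axis) against the age of the library in days, in lineages with 20 or more barcodes. Points carry exact 95% Poisson intervals (lower ends cut at the axis), open triangles mark the level that 0 UMIs allow, and grey bars mark free RNA. Epithelial points lie above B barcodes outside the cycle up to day 7 for 9 genes, and *HES1* is low throughout. For *LGR5* on day 7 the point rests on 1 UMI (log2 ratio 2.68, interval -2.88 to 5.84). The share of all genes with such an order was not counted, and 24.8% of all genes were called higher in the epithelium.

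*SOX4* had the most UMIs of the members in stromal barcodes and in B barcodes outside the cycle, and its level in B barcodes was lower in the later libraries. Epithelial barcodes held 2.93, 3.33, 6.0, 2.56 and 0.226 on days 0, 1, 3, 7 and 14, the last from 4 UMIs. B barcodes outside the cycle held 1.54, 1.19, 1.59, 1.0, 0.592 and 0.342 from day 0 to day 21. From day 3 on, the intervals of successive libraries did not overlap. After thinning to 1000 UMIs per barcode, the share of these B barcodes with a *SOX4* UMI was 14.3%, 9.98%, 5.47% and 3.15% on days 3, 7, 14 and 21, in the same order. The *SOX4* level that free RNA would carry with enterocyte genes was 0.638 and 0.0788 on days 0 and 21, below the measured level in each library. The epithelial log2 difference from B barcodes was 0.65 ± 0.40 (edgeR adjusted p = 0.204). Without day 14 it was 1.02 (edgeR adjusted p = 0.00775). Of the 27 epithelial barcodes of day 14, 25 were rich in enterocyte genes by the split given below. Barcodes rich in these genes held *SOX4* at 2.16, 2.52 and 1.63 on days 0, 1 and 7, and at 0.177 (3 UMIs) on day 14. The part of this mix in the call was not tested.

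Stromal barcodes shared *EPHB2* and *SOX4* with the epithelium and held less of 6 other members. *EPHB2* stood at 0.0772, 0.17 and 0.271 on days 0, 1 and 3 in stromal barcodes, and *SOX4* at 3.38, 4.71 and 5.3. Against B barcodes outside the cycle, over these 3 libraries, *EPHB2* was higher by 4.18 ± 0.86 and *SOX4* by 1.03 ± 0.20 on the log2 scale (edgeR adjusted p = 0.00946 and 0.0075). *EPHB2* passed the filter on low counts only through the stromal barcodes, so its call was favoured by that filter. *OLFM4* and *SPINK1* were lower in stromal barcodes, by -2.02 ± 0.62 and -2.35 ± 0.40 (edgeR adjusted p = 0.039 and 0.00468). Other epithelial genes were lower there too, 11 of 14 enterocyte genes with a median of -2.55 and 9 of 11 secretory genes with a median of -3.46, where 23.7% of all genes were lower. In the day 3 library *OLFM4* stood at 0.0729 in stroma against 0.0572 in B barcodes, a log2 ratio of 0.35 (interval -0.98 to 1.42). On day 0 *SPINK1* stood at 0.182 in B barcodes outside the cycle and 0.0772 in stroma, and the level that free RNA would carry with enterocyte genes was 0.247 and 0.0567. The part of free RNA in these calls was not tested. Of 12912 genes, 48% passed, 24.3% as higher and 23.7% as lower in stroma. Of the members 4 of the 8 tested passed, 2 higher and 2 lower, which is near the shares of all genes. *LGR5* and *ASCL2* were too low to test. None of the 4 passed without day 1, where *EPHB2* was 3.84, *SOX4* 0.88, *OLFM4* -1.01 and *SPINK1* -1.67 (edgeR adjusted p = 0.0904, 0.0706, 0.204 and 0.0762). *OLFM4* lost its call in 7 alternatives in all, at -0.76 to -2.26 (edgeR adjusted p = 0.0622 to 0.204), and changed sign with mixed barcodes kept, at 0.67. *SPINK1* lost its call in 5, at -0.10 with mixed barcodes kept to -2.33 without the library block (edgeR adjusted p = 0.0622 to 0.9). Without B barcodes holding 2 or more epithelial UMIs they were -0.79 and -0.66 (edgeR adjusted p = 0.152 and 0.172). *SOX9* and *AXIN2* passed as higher in stroma in that setting, at 2.52 and 1.33 (edgeR adjusted p = 0.0355 and 0.0419), and with mixed barcodes kept, at 1.93 and 1.12 (edgeR adjusted p = 0.0288 and 0.0375).

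Set directly against stroma, the epithelium was higher in 6 of the 8 members tested, where 41.6% of 11157 genes passed and 20.1% were higher in the epithelium. The log2 differences were 6.92 ± 0.75 for *SPINK1*, 6.64 ± 0.71 for *OLFM4*, 1.91 ± 0.34 for *SOX9* and 1.84 ± 0.35 for *AXIN2*. The stromal levels of *SPINK1* and *OLFM4* rest on 8, 10 and 2 and on 13, 6 and 7 UMIs. *ASCL2* and *SMOC2* were the others called. Their stromal levels rest on 0, 1 and 1 and on 2, 3 and 3 UMIs, so no fold is given. Both passed the filter on low counts only through the epithelium, so their part in the 6 of 8 was favoured by that filter. The edgeR adjusted p of the 6 lay between 0.00036 and 0.00617. *EPHB2* and *SOX4* gave 0.19 ± 0.32 and 0.08 ± 0.22 (edgeR adjusted p = 0.671 and 0.814), so a difference between these lineages was not detected for either. *SOX9* in stroma was 0.0482, 0.0821 and 0.281 over the 3 libraries, from 5, 15 and 27 UMIs. *LGR5* had 0, 0 and 3 UMIs there and was not tested, nor was *HES1*. With mixed barcodes kept, *ASCL2* and *SPINK1* did not pass, at 2.47 and 4.63 (edgeR adjusted p = 0.0582 and 0.0752). Without the library block *SOX9* did not pass either, at 1.92 (edgeR adjusted p = 0.1).

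**Figure D2:**
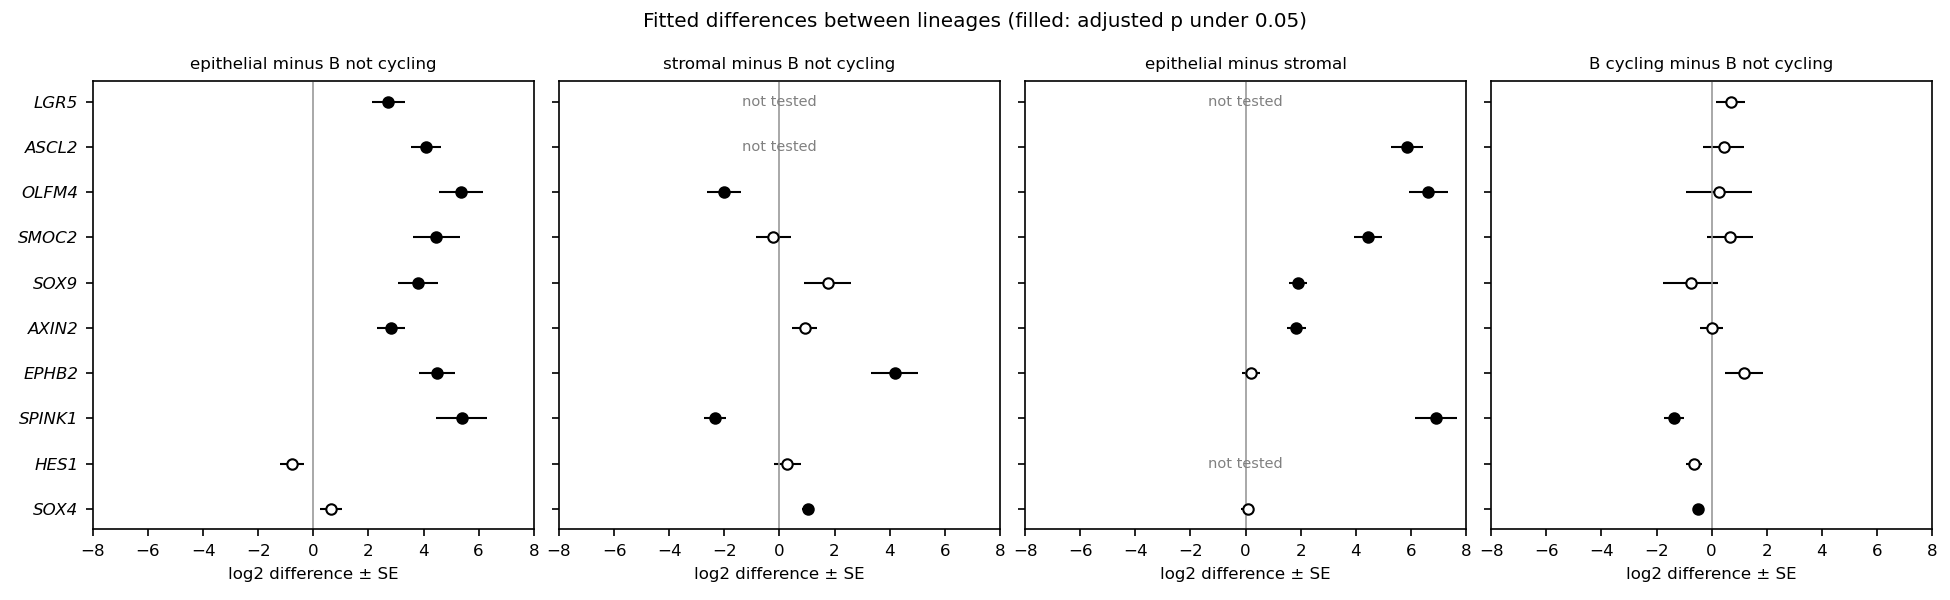
Fitted log2 differences (x axis, first lineage minus second) with their SE for the 10 genes in 4 lineage comparisons, filled where the edgeR adjusted p was under 0.05. The 8 called genes are filled on the right in the first panel, while *EPHB2* and *SOX4* sit at 0.19 and 0.08 between epithelium and stroma.

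Within the epithelium 7 of the 9 members tested were higher in dividing barcodes over the libraries of days 0, 1 and 3, though not each of them in each library. Epithelial barcodes with 2 or more *TOP2A* UMIs numbered 147, 67, 9 and 2 on days 0, 1, 3 and 7. *OLFM4* stood at 8.34 in them against 1.67 in the others on day 0, at 44.5 against 3.44 a day later and at 9.75 against 7.76 in the day 3 library. *LGR5* stood at 0.112 against 0.0236 on day 0 and at 0.131 against 0.0124 a day later, but at 0.0806 (1 UMI) against 0.139 in the day 3 library. *ASCL2* levels were 0.807 against 0.125, 0.437 against 0.049 and 1.21 against 0.508 on days 0, 1 and 3. *SOX9* and *EPHB2* were higher with *TOP2A* on days 0 and 1. In the day 3 library *SOX9* stood at 0.806 in the 9 cycling barcodes against 1.05 in the others, and *EPHB2* at 0.0806 (1 UMI) against 0.292. *HES1* was lower with *TOP2A* on day 0, at 0.0017 (1 UMI) against 0.0191. The cycling barcodes were deeper, with a median of 30082 UMIs against 9029.5 on day 0, and the *TOP2A* rule favours deep barcodes. At 1000 UMIs per barcode, *OLFM4* was found in 37.4% of cycling and 5.70% of other epithelial barcodes on day 0, and in 62.7% and 6.08% on day 1.

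The fit of this split needed a minimum of 5 barcodes, chosen after the data were seen, to bring in day 3 as the third library. Then 7 of 9 members tested were higher in cycling epithelium, where 23.1% of 11694 genes passed and 7.91% were higher. The log2 differences were 2.64 ± 0.39 for *SMOC2*, 2.42 ± 0.30 for *ASCL2*, 2.24 ± 0.42 for *EPHB2*, 2.24 ± 0.45 for *LGR5*, 2.04 ± 0.44 for *OLFM4*, 1.81 ± 0.32 for *SPINK1* and 1.55 ± 0.36 for *SOX9*. Their edgeR adjusted p lay between 5.55e-05 and 0.00613. *AXIN2* gave 0.40 ± 0.32 and *SOX4* 0.38 ± 0.22 (edgeR adjusted p = 0.416 and 0.231), and *HES1* was too low to test. With day 3 left out the count stayed at 7, and with day 0 or day 1 left out it was 5 or 6, *SOX9* (1.19) and *EPHB2* (1.85) missing without day 0 and *LGR5* (1.69) without day 1. Of all genes, 3708 of 12489 passed without day 3, 770 of 9865 without day 0 and 954 of 11003 without day 1. All 7 differences were smallest without day 1, from 1.13 for *SOX9* to 2.15 for *ASCL2*, and largest without day 3, from 2.13 for *SOX9* to 3.30 for *SMOC2*. *OLFM4* was 1.34 without day 1 and 2.94 without day 3, and *SPINK1* 1.33 and 2.41.

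**Figure D3:**
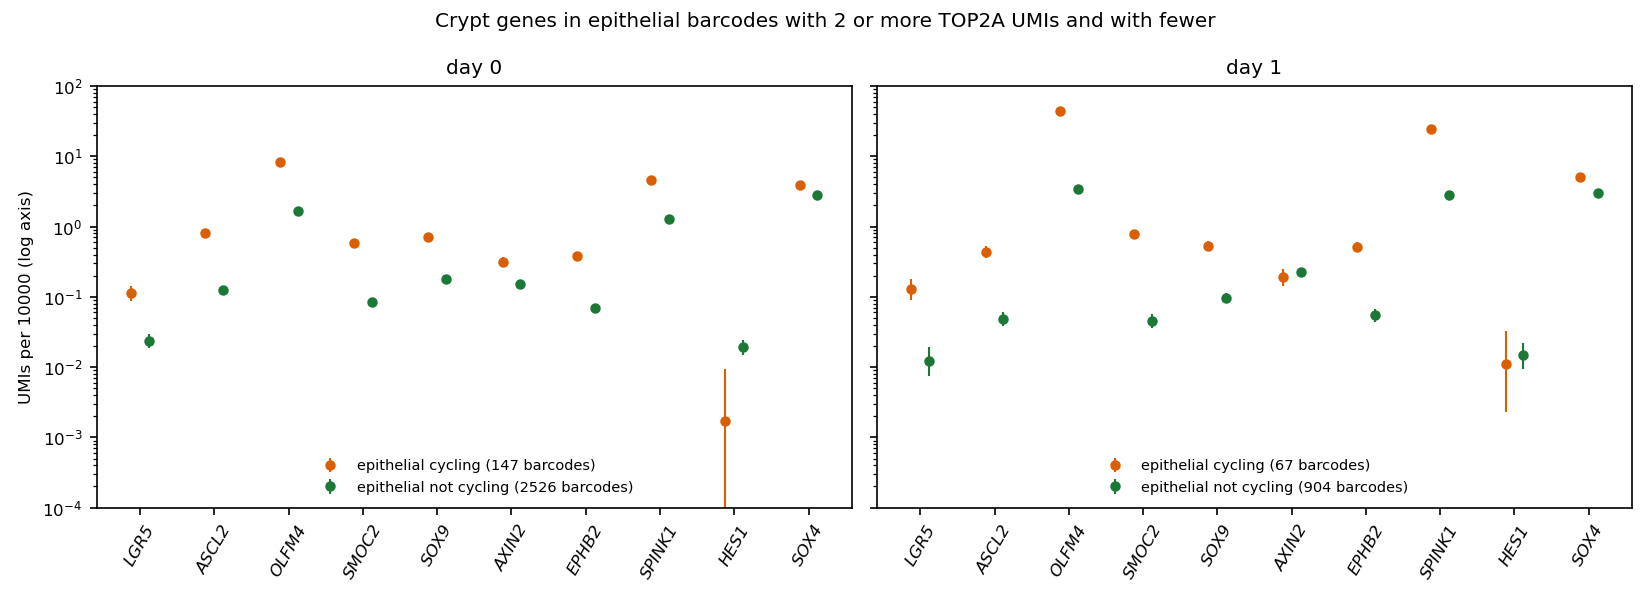
Levels of the 10 genes (UMIs per 10000, log axis, exact 95% Poisson intervals) in epithelial barcodes with 2 or more *TOP2A* UMIs and in the others, on days 0 and 1. *OLFM4* reads 44.5 against 3.44 on day 1, while *AXIN2* reads 0.19 against 0.226 on that day. On day 0 *AXIN2* reads 0.314 with *TOP2A*, above its day 1 value.

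Other genes of the crypt pathways moved with the members in part. The WNT list holds WNT receptors, feedback genes and targets, beside other crypt and intestinal genes such as *HOPX*, *MSI1* and *CDX2*. Of its 33 genes tested, 11 were higher and 3 lower in cycling epithelium, where 7.91% of all genes were higher and 15.2% lower. *NOTUM*, an enzyme that inactivates WNT, was lower by -2.80 and *HOPX* by -2.72, while *MSI1*, an RNA-binding protein of progenitors, was higher by 2.52 and *CDCA7* by 2.24. The Notch list had 2 of 15 higher and 1 lower, which is near those shares of all genes, with the receptor *NOTCH1* at 2.23, *HES6* at 0.83 and the ligand *JAG1* at -2.11. All 13 cycling genes were higher, which the rule on *TOP2A* favours, and 14 of 16 enterocyte genes were lower, against the 15.2% of all genes. Between epithelial and B barcodes, 24 of 35 genes of the WNT list were higher and 3 lower, where 24.8% of all genes were higher and 23.4% lower. The list was led by the intestinal transcription factor *CDX2* at 5.54, the co-receptor *LRP5* at 3.97, the receptor *FZD5* at 3.95 and *LGR4* at 3.93. In that comparison 6 of 18 Notch genes were higher and 3 lower, not far from the shares of all genes. Among them *NEUROG3*, which starts the enteroendocrine fate, stood at 7.49 and *DTX1* at -5.03. The medians were 2.0 for the WNT list and -0.26 for the Notch list, beside -0.10 for all genes. Stromal barcodes too had 17 of 32 genes of the WNT list higher and 5 lower than B barcodes, where 24.3% and 23.7% of all genes were. Against stroma the epithelium had 9 of 30 genes of that list higher and 11 lower, with a median of -0.11. In that comparison 20.1% of all genes were higher and 21.5% lower.

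On days 0 and 1 the summed levels of *OLFM4*, *SPINK1*, *ASCL2*, *LGR5* and *SOX9* were lower in epithelial barcodes rich in differentiation genes. The contrast was with barcodes with *TOP2A* or rich in none of the lists, and not each difference exceeded counting error. Barcodes with 2 or more *TOP2A* UMIs were taken out first, whatever differentiation genes they held. Barcodes with fewer than 2 *TOP2A* UMIs were split by 10 or more UMIs, after thinning to 1000, of enterocyte, goblet or enteroendocrine genes, a split added after the data were seen. On day 0, *OLFM4* stood at 8.34 with *TOP2A*, 3.01 in the 984 barcodes rich in none of the lists, 1.34 in goblet-rich, 0.121 in enteroendocrine-rich and 0.0293 in enterocyte-rich barcodes. On day 1 the same order gave 44.5, 11.9, 5.34, 0.0875 and 0.0477. The summed level of *SPINK1* fell through the same groups from 4.66 to 0.127 on day 0 and from 24.1 to 0.137 on day 1. At 1000 UMIs per barcode the goblet-rich and enteroendocrine-rich groups changed places, with *SPINK1* in 1.06% and 5.38% of their barcodes on day 0 and in 6.38% and 8.86% on day 1. The summed level of *ASCL2* ran in the order of the groups at 0.807, 0.23, 0.0656, 0.0324 and 0.00325 on day 0. At 1000 UMIs per barcode its shares there were 4.08%, 1.73%, 0.212%, 0.769% and 0.382%, lowest in the goblet-rich group. On day 1 it stood at 0.437 and 0.175 in the first groups and at 0.0201, 0 and 0.00743 in the goblet-rich, enteroendocrine-rich and enterocyte-rich ones, the last 3 from 3, 0 and 7 UMIs. *SOX9* in the order of the groups was 0.715, 0.281, 0.209, 0.0121 and 0.0412 on day 0. On day 1 its level of 0.201 in goblet-rich barcodes did not differ from the 0.215 with none of the lists beyond their intervals. *LGR5* had 0 UMIs in the 523 enterocyte-rich barcodes of day 0 and in enteroendocrine-rich barcodes on both days. In the latter the upper ends of the intervals were 0.0149 and 0.0807, against levels of 0.0405 and 0.0379 in barcodes rich in none of the lists, so on day 1 a difference was not detectable. Goblet-rich barcodes held *LGR5* at 0.0275 on day 0 (13 UMIs, interval 0.0146 to 0.047). The interval with none of the lists, 0.0312 to 0.0516, overlapped it. At 1000 UMIs per barcode *LGR5* was found in 0.425% of goblet-rich barcodes, 0.305% with none of the lists and 0% with *TOP2A* on day 0. *SMOC2* stood at 0.576 with *TOP2A* on day 0, 0.108 in barcodes rich in none of the lists, 0.214 in goblet-rich and 0.00108 in enterocyte-rich ones. On day 1 it was 0.114 with none of the lists and 0.154 in goblet-rich barcodes.

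The order seen for *OLFM4* did not hold for *SMOC2*, whose summed level on day 0 was higher in goblet-rich barcodes than in those rich in none of the lists, nor fully for several other members. At 1000 UMIs per barcode *SMOC2* was found in 0.849% of the former and 1.42% of the latter on day 0, the opposite order. On day 1 these shares were 2.13% and 1.18%, in the order of the levels, whose intervals overlapped (0.0977 to 0.231 and 0.083 to 0.152). *EPHB2* on day 0 stood at 0.375 with *TOP2A* and at 0.094, 0.0973 and 0.0972 in barcodes rich in none of the lists, in goblet genes and in enteroendocrine genes, but at 0.0065 (6 UMIs) in enterocyte-rich ones. *HES1* on day 0 was 0.0233 in goblet-rich barcodes against 0.0017 (1 UMI) with *TOP2A*. *AXIN2* was 0.259 in enterocyte-rich barcodes of day 1, against 0.19 with *TOP2A* and 0.0438 in enteroendocrine-rich ones. On day 0 it was highest with *TOP2A*, at 0.314, against 0.165 in enterocyte-rich and 0.174 in enteroendocrine-rich barcodes. *SOX4* stayed between 2.16 and 5.14 in each of the 5 groups on days 0 and 1. On day 7, *SOX9* stood at 1.89 in the 89 barcodes rich in none of the lists and at 0.24 in enterocyte-rich ones. No replicate exists for these groups within an age, and they were not tested.

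**Figure D4:**
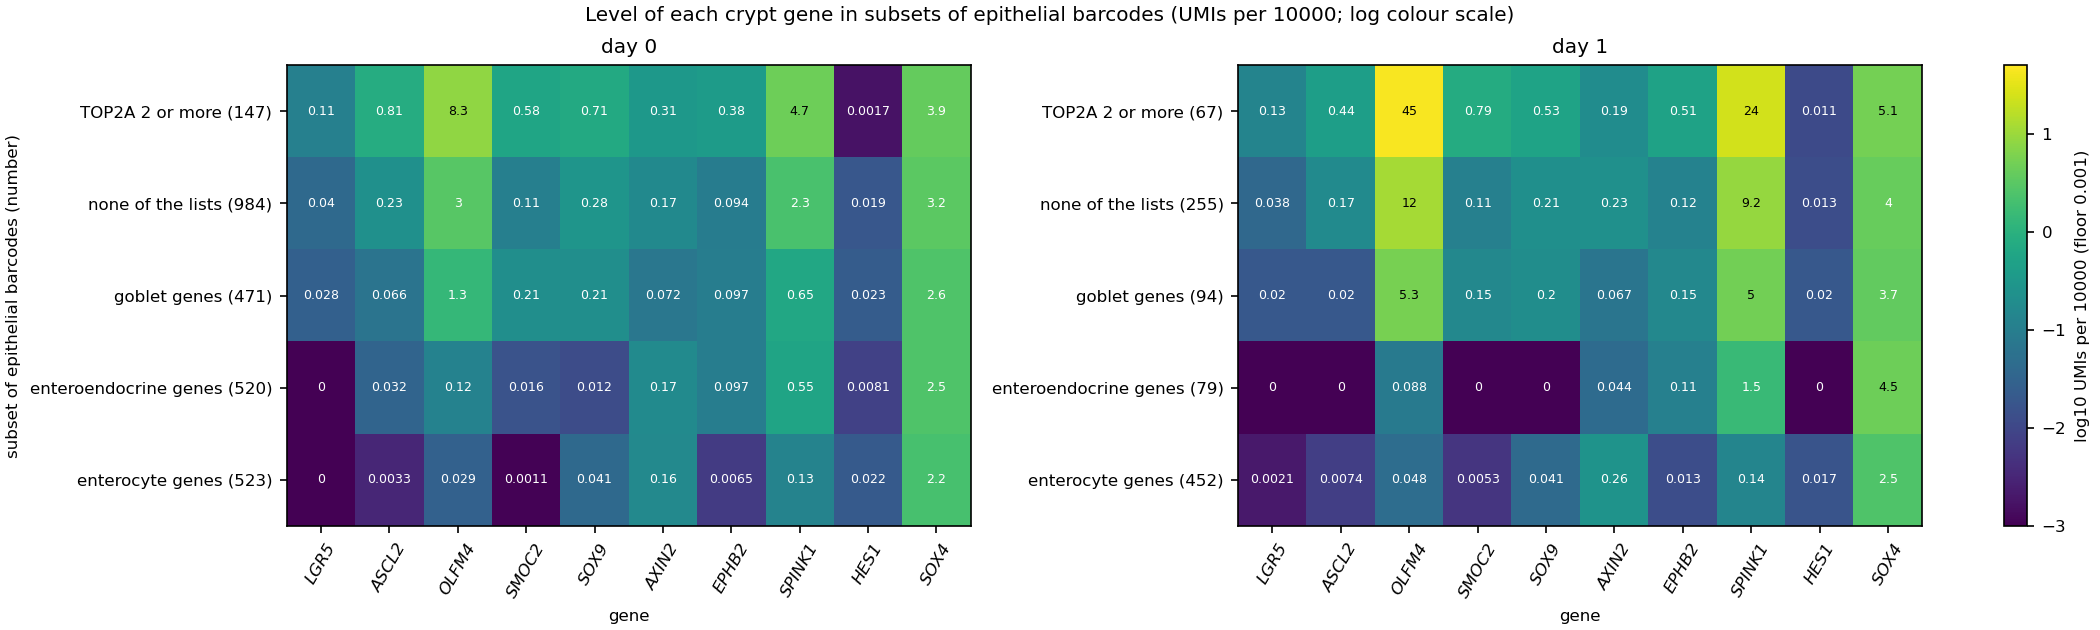
Heat map of the level of each gene (columns; UMIs per 10000, printed in the cells and coloured on a log scale) in 5 groups of epithelial barcodes (rows, number of barcodes in brackets) on days 0 and 1. *OLFM4* runs from 8.34 to 0.0293 on day 0 and *SOX4* stands at 2.16 or more in each group.

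Barcodes that held *SPINK1*, *ASCL2*, *SMOC2* or *LGR5* held *OLFM4* more often than those without. After thinning to 1000 UMIs, over all libraries, 323 of 3938 epithelial barcodes held *OLFM4*, 288 *SPINK1*, 50 *SMOC2*, 34 *ASCL2* and 7 *LGR5*. Of the barcodes with *SPINK1*, 44.1% held *OLFM4*, against 5.37% of those without. Within the libraries of days 0, 1 and 3 the shares were 34.7% against 5.83%, 58.7% against 3.83% and 62.5% against 18.3%. Over all libraries *OLFM4* was found in 47.1% of barcodes with *ASCL2*, 48.0% with *SMOC2* and 5 of 7 with *LGR5*, beside 8.2% of all epithelial barcodes. These shares pool libraries that differ in *OLFM4*, and shares within libraries are given for *SPINK1* only. Without thinning, 118 of 128 barcodes with *LGR5* held *OLFM4*, against 13.9% of those without *LGR5*, a contrast in which depth differs as well. *SOX4* was less tied to it, in 28.8% of barcodes with *OLFM4* and 22.2% of those without. Only 8 barcodes held *HES1* after thinning, and 0 of them *OLFM4* (interval up to 36.9%), too few to set against the 8.22% of barcodes without *HES1*.

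Barcodes with 2 or more thinned *OLFM4* UMIs numbered 97, 75 and 12 on days 0, 1 and 3, and were set against those with 0. *LGR5* stood at 0.198 against 0.0169 at birth and 0.172 against 0.00447 a day later, while the day 3 values of 0.267 and 0.0193 rest on 3 UMIs and 1 UMI. With the same minimum of 5 barcodes, the 6 members *LGR5*, *SPINK1*, *ASCL2*, *SMOC2*, *EPHB2* and *SOX9* of the 8 others tested were higher, where 17.3% of 10845 genes passed and 6.37% were higher. The log2 differences ran from 4.11 ± 0.46 for *LGR5* to 1.89 ± 0.42 for *SOX9*, with edgeR adjusted p between 0.00051 and 0.0128. *LGR5* passed the filter on low counts only through the barcodes with 2 or more *OLFM4* UMIs, so its call was favoured by that filter. *SPINK1* was next at 3.91 ± 0.48. *AXIN2* gave 1.11 ± 0.45 and *SOX4* 0.09 ± 0.27 (edgeR adjusted p = 0.121 and 0.87). Without day 0, *ASCL2*, *EPHB2* and *SOX9* lost their calls at 3.23, 2.81 and 1.5 (edgeR adjusted p = 0.109, 0.0998 and 0.311), where the fits over all 3 libraries gave 3.5, 2.81 and 1.89. Without day 1, *EPHB2* and *SOX9* lost theirs at 1.86 and 1.34 (edgeR adjusted p = 0.0582 and 0.115) and *AXIN2* passed at 1.86 (edgeR adjusted p = 0.037). The 6 differences were all smaller without day 1, from 1.34 for *SOX9* to 3.48 for *LGR5*. Of the WNT list, 12 of 32 were higher and 2 lower, led by *CDCA7* at 3.38, *TNFRSF19* at 2.99 and *CD44* at 2.83, while *HOPX* was lower by -2.77. Of 11 secretory genes, 0 were higher and 6 were lower, where 10.9% of all genes were lower. Of 16 enterocyte genes 13 were lower, with a median of -2.57, and of 13 cycling genes 12 were higher, with a median of 2.12. The *OLFM4*-high barcodes were also deeper, with a median of 19301 UMIs against 9092.5 on day 0. The part of division and depth in these differences was not tested.

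No member was higher in cycling than in other B barcodes over the 6 libraries, though on day 0 several were. Of the 10 members, *SPINK1* and *SOX4* were lower than in B barcodes outside the cycle, by -1.38 ± 0.37 and -0.49 ± 0.14 on the log2 scale over 6 libraries (edgeR adjusted p = 0.018 and 0.0217), where 36.5% of 13606 genes passed and 24.7% were lower. Beside them 6 of 16 enterocyte genes and 4 of 12 secretory genes were lower and 0 higher, with medians of -1.05 and -0.99. *SOX4* stood at 2.28, 1.2, 1.02, 0.534, 0.396 and 0.287 in cycling B barcodes from day 0 to day 21, below the non-cycling level from day 3 on and above it on day 0. Neither call held with mixed barcodes kept, with stricter lineage rules, without the library block or without day 7. *SOX4* lost its call in 10 alternatives, at -0.23 to -0.47 (edgeR adjusted p = 0.0723 to 0.872), those without day 3, 7, 14 or 21 among them. *SPINK1* lost its call in 7, at -0.30 to -1.60 (edgeR adjusted p = 0.0649 to 0.753), those without day 1 or day 7 among them. Without B barcodes holding 2 or more epithelial UMIs it was -0.89 (edgeR adjusted p = 0.0983). The 2 of 10 members called are near the share of all genes that were lower. On day 0, *OLFM4* stood at 5.64 in the 81 cycling B barcodes, from 683 UMIs. *ASCL2* stood at 0.528 there against 0.015 in B barcodes outside the cycle, *SMOC2* at 0.363 against 0.0309, *EPHB2* at 0.231 against 0.016 and *LGR5* at 0.066 (8 UMIs) against 0.00898. Each of these levels in the cycling B barcodes was above that of the epithelial barcodes of day 0, for *LGR5* with overlapping intervals. All 683 *OLFM4* UMIs lay in 11 barcodes that also held 5 or more epithelial UMIs, with a median of 39557 UMIs in all. In the 68 cycling B barcodes of day 0 with under 2 epithelial UMIs, *OLFM4*, *ASCL2*, *SMOC2* and *LGR5* had 0 UMIs and *EPHB2* 1, and *SOX4* stood at 0.802, against 1.28 in such barcodes outside the cycle. Without day 0, *OLFM4* and *SOX9* also passed as lower, at -1.74 and -2.27 (edgeR adjusted p = 0.0235 and 0.00517), and no member passed as higher.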

How the data were processed

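Cells were prepared with the 10x Genomics 3′ kit (version 2 in the methods, V3 in the sample labels). The authors counted reads with Cell Ranger 3.1.0 and STAR against Sscrofa11.1 and deposited unfiltered raw UMI counts, without normalization. The 10 genes, gene lists and tests were chosen with earlier results of these data known. Of the other genes, each list was counted whole and at most 4 called genes with the largest absolute log2 difference were named. Levels are summed UMIs per 10000. Counts of barcodes were summed per library and lineage and tested with edgeR 4.0.16 in R 4.3.3 (TMM, filterByExpr, quasi-likelihood F-test, library as block, Benjamini-Hochberg over all genes tested). DESeq2 1.42.0, other filters, lineage rules and libraries left out served as alternatives. The edgeR steps were tested on simulated counts. Libraries shared at most 0.508% of barcodes. No doublet caller was run. Leaving out the 10% of barcodes with most UMIs was an alternative. No gene or promoter sequence was used here, so the planned motif search was not run. Gene positions are those of the reference table of the same assembly. Python 3.11.15 with scipy 1.17.1 gave intervals.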

Additional observations from a re-analysis of the deposited data

Results flagged for a closer look

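Several differences pointed in opposite directions in different libraries. Each age has 1 library, so none of these contrasts between ages was tested. Values are log2 ratios of levels, cycling minus other B barcodes unless named otherwise.

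For *OLFM4* the ratio was 4.39, -3.86, -0.73 and -1.82 on days 0, 1, 3 and 7. For *SOX9* it was 3.11, -2.74 and -2.14 on days 0, 3 and 7. *AXIN2* gave 2.0 and 1.18 on days 0 and 21, but -1.15 on day 3. *SOX4* gave 0.56, -0.64, -0.91, -0.58 and -0.25 on days 0, 3, 7, 14 and 21. The 81 cycling B barcodes of day 0 held epithelial markers at 16.0 UMIs per 10000, against at most 2.02 in the later libraries.

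*SOX4* between epithelial barcodes and B barcodes outside the cycle gave 0.93, 1.49, 1.91 and 1.35 on days 0, 1, 3 and 7, but -1.39 on day 14. The day 14 value rests on 4 epithelial *SOX4* UMIs in 27 barcodes.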

How the results depend on the processing

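Of 580 alternative values of a member's log2 difference, 509 kept direction and call, 34 lost the call, 11 gained it and 26 changed sign, of which 3 were called before or after. The 36 values at a minimum of 5 barcodes let in no further library and so repeat the reported fits. Those at a minimum of 50 barcodes repeat the reported fits or the fit without day 14. *OLFM4* turned to 0.67 between stromal and B barcodes with mixed barcodes kept, and in the cycling B comparison to -1.76 without B barcodes holding epithelial UMIs and to -1.74 without day 0, in a range of -1.74 to 1.51 with 1 library left out. The other sign changes were of values called neither in the reported fit nor in that alternative. With 1 library left out they ranged, in the cycling B comparison, from -0.33 to 0.81 for *ASCL2* and -0.55 to 1.38 for *SMOC2*, both lowest without day 0, from -2.27 to 0.042 for *SOX9*, highest without day 3 and called without day 0, and from -0.19 to 0.36 for *AXIN2*, below 0 without day 0, 7 or 21. The range was -0.53 to 0.27 for *SMOC2* between stromal and B barcodes, and between epithelium and stroma -0.055 to 0.48 for *EPHB2* (lowest without day 0) and -0.035 to 0.23 for *SOX4* (lowest without day 3). In the cycling B comparison *OLFM4* was -0.61 with DESeq2 and -0.77 without the top 10% of UMIs, and *SMOC2* -0.23 without the top 10%. Without B barcodes holding epithelial UMIs, *SMOC2* was -1.04, *ASCL2* -0.55 and *AXIN2* -0.046, and *SOX9* gained a call at -1.76, as it did without the top 10% at -1.74. *AXIN2* was -0.015 there with a mitochondrial share under 25%, and *SOX4* -0.017 between epithelium and stroma. With no TMM, *EPHB2* and *SOX4* were -0.065 and -0.18 between epithelium and stroma, and *SMOC2* was 0.37 between stromal and B barcodes. Without the top 10%, *EPHB2* was -0.60 in the former, and *SMOC2* 0.48 and *HES1* -0.042 in the latter. The 8 epithelial calls against B barcodes stayed at 8 to 9, and the 6 against stroma at 4 to 7. In the reported fits 48.2% and 41.6% of all genes passed in these comparisons. The shares were 48% for stromal against B barcodes and 36.5% for cycling against other B barcodes. Shares of all genes in the alternatives are not given. For stromal against B barcodes the count of 4 fell to 2 with no library block, and ranged from 0 to 4 with 1 library left out. It stayed at 4 with mixed barcodes kept and without B barcodes holding epithelial UMIs, but with *SOX9* and *AXIN2* in place of *OLFM4* and *SPINK1*, and *SOX9* also passed without the top 10% of UMIs, at 2.42, and *AXIN2* with no TMM, at 1.5. For cycling B barcodes the count of 2 was 1 with no TMM, with no filter and at 2000 UMIs and 1000 genes. It was 0 with no library block (the unpaired fit), with mixed barcodes kept and with stricter gates, and ranged from 0 to 4 with 1 library left out. The cause was not tested. Of 1400 alternative levels, 1164 stayed within the counting interval. At the planned minimum of 20 barcodes only the libraries of days 0 and 1 qualified for the 2 epithelial splits. Their fits, those without day 3, called 7 and 6 members, where 3708 of 12489 and 3452 of 12231 genes passed. No other normalization, filter, gate or block was run for these splits. Day 14 holds 27 epithelial barcodes and day 21 holds 1, so member levels there rest on 0 to 9 UMIs.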

Other observations

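The genes most like a member in pattern were taken over 20 sums of lineage and library, which share libraries and depth, among 8780 genes. *EPHB2* was most like *NPNT* (Pearson r = 0.983), *SPINK1* most like *GUCA2B* (r = 0.971), *ASCL2* most like *C5* (r = 0.969), *OLFM4* most like *CFI* (r = 0.969) and *LGR5* most like *SMOC2* (r = 0.918). *CFI* and *C5* are complement genes, and *GUCA2B* encodes the gut peptide uroguanylin. *AXIN2* was most like *RASEF* (r = 0.95) and *SOX9* also (r = 0.940).

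Barcodes of no lineage held *SOX9* at 0.321 UMIs per 10000 on day 7, against 0.0214 in B barcodes outside the cycle and 0.747 in epithelial barcodes of that library. On the other days *SOX9* lay at 0.0849 or lower in barcodes of no lineage.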
